A study of Oryctolagus cuniculus with 17 samples.

Results

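The genes described here are the interleukin 6 (IL6) family cytokines, their receptors and the transcription factor STAT3 in the lung of preterm rabbits. They were chosen by name. Of 10 human gene symbols looked up in the deposited count table, 8 were found, which is 8 of its 13827 entries: the ligands LIF, IL6 and OSM, the receptors LIFR, OSMR, IL6R and IL6ST, and STAT3. IL11 and SOCS3 were not analysed here. All 8 genes passed the filter on low counts and were among the 13142 entries tested, and each lies on a locus that no other entry shares.

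IL6 family cytokines bind a ligand-specific receptor that pairs with IL6ST (gp130), the signal-transducing chain that most of the family shares. IL6 is recognised by IL6R, LIF by LIFR, and OSM by OSMR or LIFR. The assembled complex activates Janus kinases, which phosphorylate STAT3, and phosphorylated STAT3 enters the nucleus and drives genes of the acute phase response, cell survival and feedback inhibition. In the injured lung the family is known for its part in inflammation and in epithelial survival. RNA levels were measured here, and STAT3 phosphorylation was not.

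New Zealand White pups were delivered on gestation day 28 and kept in incubators at 95% oxygen (hyperoxia) or 21% oxygen (normoxia) until postnatal day 3, 5 or 7, all of them fed milk replacer by tube. RNA came from homogenates of the right lung. The groups are called HT3, HT5 and HT7 in hyperoxia and NT3, NT5 and NT7 in normoxia, with 3 libraries each except for 2 in HT5. Neither the labels nor the methods say whether same-group pups came from separate litters, so p-values measure the spread between these libraries.

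The libraries held between 13123731 and 18111086 counts, with each locus counted once. Levels are given as CPM (the count scaled to a common library size) after TMM normalization, and since CPM is not corrected for transcript length, levels are compared between libraries and not between genes. A gene passed the test at an adjusted p-value under 0.01, and a DEG also had a log2FC above 2 or below -2. The surfactant genes SFTPC, SFTPB and SFTPA1, which mark alveolar type 2 cells, were abundant in all groups, with a summed level of their marker list of at least 11385 CPM in every library, although SFTPB shares its locus with TMEM150A. Skeletal and heart muscle markers stood apart in 3 hyperoxia libraries, with summed levels of 300 CPM in HT3 replicate 2, 279 CPM in HT5 replicate 1 and 37.7 CPM in HT3 replicate 3, against 2.60 to 10.4 CPM elsewhere.

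In the files the positions are those of the rabbit build OryCun2.0. LIF (ENSOCUG00000003768) and OSM (ENSOCUG00000010199) are neighbours on scaffold GL018723, both on the minus strand, at 3399724 to 3402525 and 3414073 to 3426982, with 11547 bp between them. Both lie within the listed span of SF3A1, a splicing factor on the same strand that has a locus and counts of its own. SF3A1 did not pass on any day, with a log2FC of 0.02, 0.14 and 0.23 on days 3, 5 and 7. LIFR (ENSOCUG00000003333, 59536757 to 59598354, minus strand) and OSMR (ENSOCUG00000012643, 59890186 to 59951335, plus strand) lie 291831 bp apart on chromosome 11, and IL6ST (ENSOCUG00000007839) lies on the same chromosome at 71908586 to 71943040. IL6 (ENSOCUG00000027471) is on chromosome 10 at 7771592 to 7776399, IL6R (ENSOCUG00000016354) on chromosome 13 at 38152389 to 38195019 and STAT3 (ENSOCUG00000011034) on chromosome 19 at 43123318 to 43146827.

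On each day the hyperoxia group was set against the normoxia group of that day, to follow how these genes responded to oxygen over time. No gene of the family passed on day 3. On day 5, 3 were upregulated (LIF, IL6ST and STAT3) and LIFR was downregulated. On day 7, 4 were upregulated (LIF, IL6, IL6ST and STAT3) and LIFR was again downregulated. OSM, OSMR and IL6R did not pass on any day. In a lung homogenate, fewer cells of a type and less RNA per cell cannot be told apart.

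By edgeR's quasi-likelihood test with Benjamini-Hochberg adjustment, the count of 0 on day 3 stood beside a background of 0.205% of all tested genes. At an unadjusted p-value under 0.05, 4 of the 8 were called on day 3 (OSMR, IL6R, IL6ST and STAT3, all higher in HT3), against 15.3% of all genes. The DESeq2 Wald test called 1 of the 8 on day 3, IL6ST. The share of all genes that the Wald test called was not computed, here or in later comparisons. The 4 of 8 called on day 5 stood beside 16.2% of all genes (8.56% higher and 7.62% lower), and the 5 of 8 on day 7 beside 33.6% (16.7% higher and 16.9% lower). None of the 8 was a DEG on day 3, when 0.0533% of all genes were. LIF was the only DEG among the 8 on day 5, where 1.58% of all genes were DEGs. LIF, IL6 and LIFR were DEGs on day 7, where the share was 4.59%. Leaving out 1 library at a time changed the day 5 count to 0 without HT5 replicate 2 and to 3 without HT5 replicate 1, NT5 replicate 2 or NT5 replicate 3, and the day 7 count to 3 without HT7 replicate 1 or NT7 replicate 3 and to 4 without NT7 replicate 1 or NT7 replicate 2. With the day 5 libraries fitted alone, 0 of the 8 passed on day 5. In that fit 0 of the 55 pathway genes described below passed, against 14 in the main fit. For these fits, which have fewer libraries, the share of all genes called was not computed. The median log2FC of the 8 genes was 0.76, 0.96 and 0.79 on days 3, 5 and 7, while that of all tested genes was 0.00079, -0.019 and -0.0078.

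**Figure D1:**
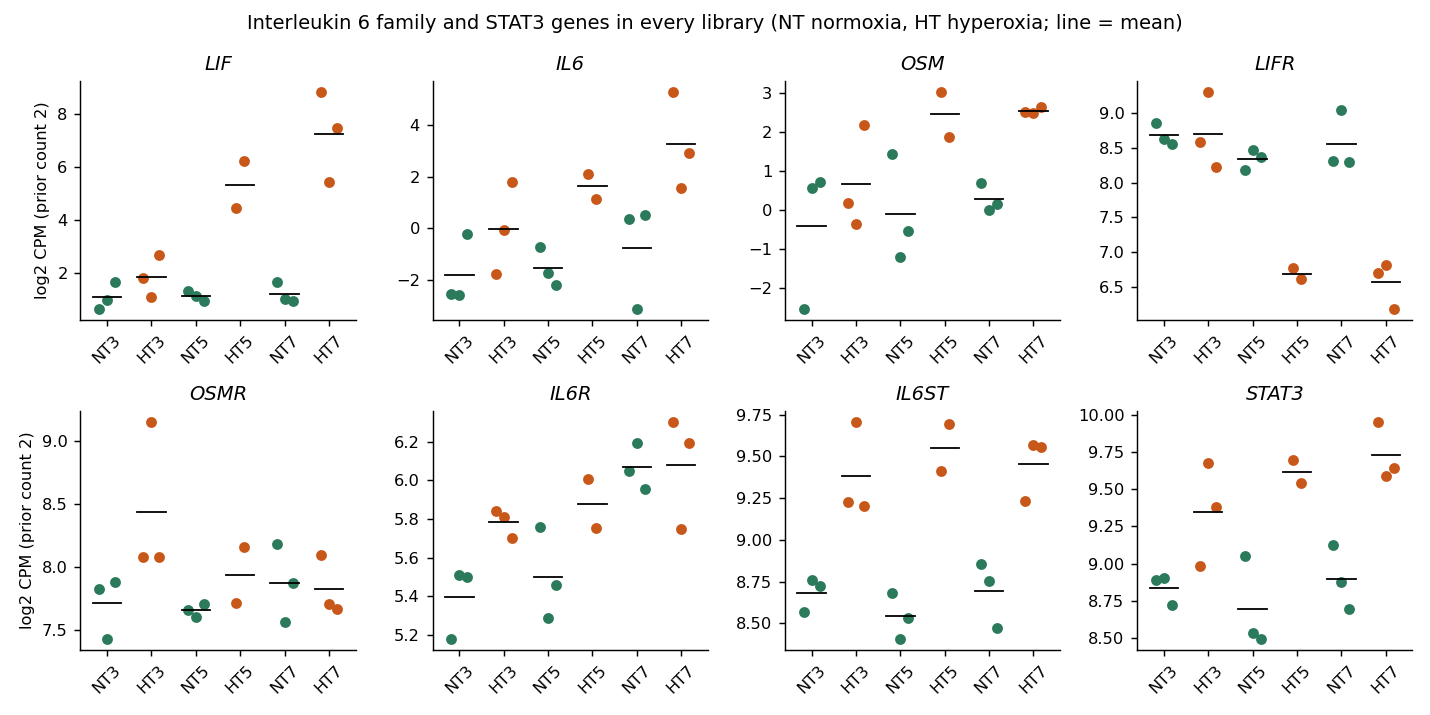
Level of each of the 8 genes in every library, as log2 CPM with a prior count of 2, by group on the x axis (green normoxia, orange hyperoxia; the line is the group mean of 3 libraries, or 2 in HT5). LIF, IL6, OSM, IL6ST and STAT3 lie higher in all 5 libraries of HT5 and HT7 than in any of the 9 normoxia libraries, LIFR lies lower in those 5, and OSMR and IL6R overlap.

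LIF, a cytokine with roles in inflammation, stem cell maintenance and epithelial repair, was low in normoxia on all 3 days. It stood at 1.46, 1.86 and 3.02 CPM in the 3 libraries of NT3, at 2.36, 2.10 and 1.81 CPM in NT5, and at 3.01, 1.89 and 1.81 CPM in NT7. In hyperoxia it stood at 3.43, 1.99 and 6.30 CPM in HT3, at 21.7 and 75.2 CPM in HT5, and at 457, 43.5 and 176 CPM in HT7. The groups overlapped on day 3 and were apart on days 5 and 7, and the HT7 libraries themselves differed by 10.5-fold, with replicate 1 the highest.

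The LIF log2FC was 0.89 (SE 0.77, adjusted p = 0.627) on day 3 and 4.54 (SE 0.78, adjusted p = 0.00092) on day 5, by edgeR's quasi-likelihood test with Benjamini-Hochberg adjustment, as for all adjusted p-values here. The day 3 value ran from 0.37 without HT3 replicate 3 to 1.22 without NT3 replicate 3. The day 5 difference is a 23.2-fold higher level, with a 95% confidence interval of 2.87 to 6.21 on the log2 scale. On day 7 the interval ran from 4.94 to 8.38 around a log2FC of 6.66, and without HT7 replicate 1 the log2FC was 5.62 (adjusted p = 4.25e-05). The day 5 call rested on HT5 replicate 2, without which the log2FC was 3.38 (adjusted p = 0.0254), the lone remaining HT5 library then being taken to vary like the other groups. It was also lost when the day 5 libraries were fitted alone (log2FC 4.55, adjusted p = 0.0143).

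IL6, the family's founding cytokine and a main inducer of the acute phase response, was at a few reads in normoxia. It had 1, 1 and 13 counts in NT3, 8, 3 and 2 in NT5, and 17, 0 and 21 in NT7. In hyperoxia it had 3, 15 and 58 counts in HT3, 61 and 39 in HT5, and 667, 47 and 146 in HT7, where these correspond to 38.5, 2.84 and 7.48 CPM. The groups overlapped on day 3 and did not on days 5 and 7, and HT7 replicate 1 was 13.5-fold above HT7 replicate 2, as it was also the highest library for LIF.

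Only the day 7 difference of IL6 passed, with a log2FC of 4.28 (SE 1.17, adjusted p = 0.00751) and an interval of 1.79 to 6.78. The log2FC was 2.38 (SE 1.31, adjusted p = 0.411) on day 3 and 3.58 (SE 1.38, adjusted p = 0.0602) on day 5. Leaving out 1 library, the day 3 value ran from 0.88 without HT3 replicate 3 to 4.61 without NT3 replicate 3. The day 7 call was lost without HT7 replicate 1 (log2FC 2.63, adjusted p = 0.0747), and also without NT7 replicate 1 (adjusted p = 0.0211), replicate 2 (0.0282) or replicate 3 (0.0189). It was lost as well when the day 7 libraries were fitted alone (adjusted p = 0.0201).

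OSM (oncostatin M), made mostly by myeloid cells and known for acting on fibroblasts and epithelium, was also low. It had 1, 27 and 27 counts in NT3, 43, 5 and 11 in NT5, and 22, 13 and 16 in NT7. In hyperoxia it had 17, 12 and 75 counts in HT3, 117 and 66 in HT5, and 97, 90 and 119 in HT7. In CPM the 3 HT7 libraries lay within 1.12-fold of each other, unlike those of LIF and IL6, and all 5 libraries of HT5 and HT7 were above all 9 of normoxia.

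OSM did not pass, although its groups were apart on days 5 and 7. The log2FC was 1.02 (SE 0.85, adjusted p = 0.608) on day 3, 2.31 (SE 0.90, adjusted p = 0.0623) on day 5 and 2.34 (SE 0.85, adjusted p = 0.0341) on day 7. Leaving out 1 library at a time, the day 5 value ran from 1.62 to 3.66. Fitted on the day 7 libraries alone, OSM passed (adjusted p = 0.00132). The day 3 value turned to -0.24 without HT3 replicate 3, in which LIF, IL6 and OSM each had their highest HT3 level.

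LIFR, the receptor chain that binds LIF, was the only gene of the 8 that was downregulated. It stood at 463, 395 and 377 CPM in NT3, at 291, 356 and 330 CPM in NT5, and at 316, 529 and 315 CPM in NT7. In hyperoxia it stood at 385, 634 and 298 CPM in HT3, at 109 and 97.2 CPM in HT5, and at 103, 112 and 72.5 CPM in HT7. HT3 overlapped NT3, while every HT5 and HT7 library was below the lowest normoxia library.

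The LIFR log2FC was 0.09 (SE 0.25, adjusted p = 0.904) on day 3, -1.66 (SE 0.30, adjusted p = 0.0013) on day 5 and -2.01 (SE 0.26, adjusted p = 3.63e-05) on day 7. These are 3.15-fold and 4.02-fold lower levels on days 5 and 7. The day 7 call held whichever single library was left out, with a log2FC between -2.14 and -1.72. The day 5 call was lost without HT5 replicate 2 (log2FC -1.57, adjusted p = 0.0312) and when day 5 was fitted alone (adjusted p = 0.0126). On day 3, leaving out HT3 replicate 2, the library with the most muscle marker counts, turned the log2FC to -0.27 (adjusted p = 0.658).

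**Figure D2:**
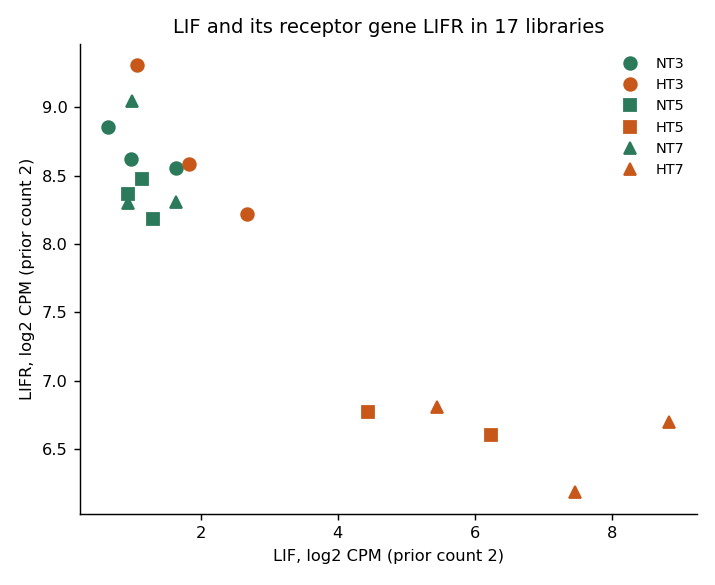
LIF on the x axis against LIFR on the y axis, both as log2 CPM with a prior count of 2, 1 point per library (green normoxia, orange hyperoxia; circles day 3, squares day 5, triangles day 7). The 5 libraries of HT5 and HT7 lie at the lower right. Their LIF is 21.7 CPM or more and their LIFR 112 CPM or less. The 3 HT3 libraries lie apart from these 5, and each is outside the normoxia range on 1 axis. The highest normoxia LIF, 3.02 CPM, is exceeded by HT3 replicate 1 (3.43 CPM) and HT3 replicate 3 (6.30 CPM). The highest normoxia LIFR, 529 CPM, is exceeded by HT3 replicate 2 (634 CPM).

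OSMR, the OSM-specific receptor chain, stood at 172 to 236 CPM in NT3, 194 to 209 CPM in NT5 and 189 to 290 CPM in NT7. It stood at 271, 569 and 271 CPM in HT3, at 211 and 285 CPM in HT5, and at 274, 209 and 203 CPM in HT7. All 3 HT3 libraries were above NT3, and HT3 replicate 2 was 2.10-fold above the lowest of HT3. The log2FC of 0.81 (SE 0.26, adjusted p = 0.148) on day 3 did not pass, and it was 0.36 (adjusted p = 0.468) without that library. On day 7 it was -0.06, with an interval of -0.60 to 0.49.

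IL6R, the receptor chain that binds IL6, stood at 36.1, 45.5 and 45.1 CPM in NT3, at 54.0, 39.0 and 43.8 CPM in NT5, and at 66.0, 73.1 and 62.0 CPM in NT7. It stood at 57.3, 56.1 and 51.9 CPM in HT3, at 64.1 and 53.8 CPM in HT5, and at 78.7, 53.6 and 73.0 CPM in HT7. The HT3 libraries were above those of NT3, and by day 7 both groups covered a similar range. The log2FC was 0.38 (SE 0.15, adjusted p = 0.244), 0.37 (SE 0.17, adjusted p = 0.11) and 0.03 (SE 0.15, adjusted p = 0.887) on days 3, 5 and 7. Within normoxia, IL6R had a log2FC of 0.67 (SE 0.15, adjusted p = 0.31) for NT7 against NT3, which did not pass.

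IL6ST, the shared signalling chain, was higher in all 8 hyperoxia libraries than in any of the 9 normoxia libraries. In normoxia it stood at 379, 434 and 423 CPM in NT3, at 411, 339 and 371 CPM in NT5, and at 463, 432 and 356 CPM in NT7. In hyperoxia it stood at 600, 835 and 590 CPM in HT3, at 680 and 829 CPM in HT5, and at 602, 759 and 753 CPM in HT7. No other gene of the 8 separated all hyperoxia from all normoxia libraries, and 2.94% of all tested genes were higher in this way.

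The IL6ST log2FC was 0.71 (SE 0.15, adjusted p = 0.0408) on day 3, 1.01 (SE 0.17, adjusted p = 0.000703) on day 5 and 0.76 (SE 0.15, adjusted p = 0.000943) on day 7. These are levels 1.64-fold, 2.02-fold and 1.69-fold higher. The day 3 value did not pass with edgeR but did with the DESeq2 Wald test (adjusted p = 0.00148), and it was 0.53 (adjusted p = 0.153) without HT3 replicate 2. The day 5 call was lost without HT5 replicate 2 (log2FC 0.87, adjusted p = 0.0198) and with day 5 fitted alone (adjusted p = 0.0171), and the day 7 call held whichever single library was left out.

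STAT3, the transcription factor at the end of the pathway, stood at 474, 480 and 422 CPM in NT3, at 531, 371 and 360 CPM in NT5, and at 558, 470 and 414 CPM in NT7. In hyperoxia it stood at 507, 817 and 665 CPM in HT3, at 828 and 747 CPM in HT5, and at 991, 771 and 801 CPM in HT7. The groups did not overlap on any day, and 7 of 8 hyperoxia libraries were above the highest normoxia library. HT7 replicate 1, the highest library for LIF and IL6, was also the highest for STAT3.

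The STAT3 log2FC was 0.53 (SE 0.18, adjusted p = 0.176) on day 3, 0.91 (SE 0.20, adjusted p = 0.00417) on day 5 and 0.83 (SE 0.18, adjusted p = 0.00187) on day 7. The calls were 1.87-fold and 1.78-fold higher levels. The day 5 call was lost without HT5 replicate 1 (adjusted p = 0.0216), HT5 replicate 2 (0.0281), NT5 replicate 2 (0.0181) or NT5 replicate 3 (0.0204), and with day 5 fitted alone (adjusted p = 0.0299). The day 7 call was lost without HT7 replicate 1 (adjusted p = 0.0109) or NT7 replicate 3 (adjusted p = 0.0118), with the log2FC between 0.71 and 0.95.

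**Figure D3:**
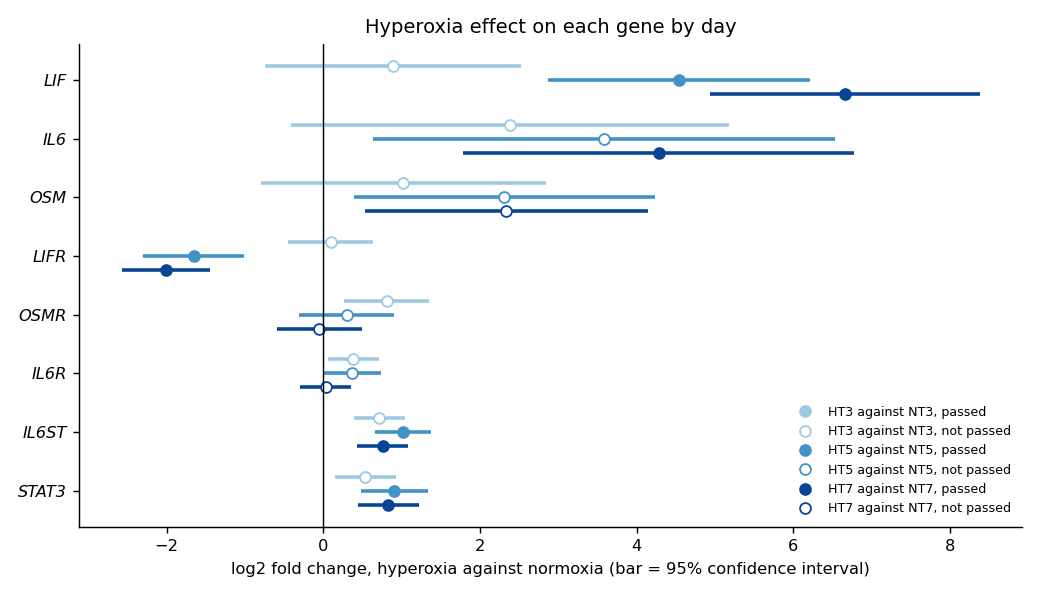
Hyperoxia against normoxia for each of the 8 genes on days 3, 5 and 7 (light to dark blue), with the log2FC on the x axis, bars for the 95% confidence interval and filled points for an adjusted p-value under 0.01. LIF moves from 0.89 to 6.66 and LIFR from 0.09 to -2.01 between days 3 and 7, while IL6ST and STAT3 stay between 0.53 and 1.01 on all 3 days.

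Across the 8 genes, the groups did not overlap for 4 on day 3, all higher in hyperoxia, where 12.8% of all tested genes were higher without overlap. On day 5 this held for 6 higher genes, against 26.5% of all genes, and for LIFR as the lower one, against 29.2%. On day 7 it held for 5 higher genes, against 27.3%, and for LIFR, against 27.2%. With HT5 and HT7 pooled, LIF, IL6, OSM, IL6ST and STAT3 were above all 9 normoxia libraries in 5 of 5 libraries, as were 15.8% of all genes, and LIFR was below them in 5 of 5, as were 14.6%.

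Whether the hyperoxia effect itself changed with time was tested as the difference between days. From day 3 to day 7 the effect on LIF grew by a log2 value of 5.77 (SE 1.08, adjusted p = 0.00332) and that on LIFR changed by -2.10 (SE 0.36, adjusted p = 0.00217). These were the 2 of 8 genes that passed, against 7.27% of all genes (2.59% with a more positive and 4.68% with a more negative effect). The LIF difference did not pass without NT3 replicate 3 (5.43, adjusted p = 0.0136) or NT7 replicate 2 (5.67, adjusted p = 0.0116).

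The effect on IL6ST differed between days 3 and 7 by 0.05, with an interval of -0.41 to 0.50, and that on STAT3 by 0.30, with an interval of -0.25 to 0.85. That on OSMR differed by -0.86 (SE 0.36, adjusted p = 0.102). Neither a change in these 3 genes nor its absence was therefore shown. Between days 3 and 5, 0 of 8 genes and 0% of all genes passed with edgeR, 2 of 8 (LIF and LIFR) and 20.3% of all genes had an unadjusted p-value under 0.05, and the DESeq2 Wald test called LIFR. Between days 5 and 7, 0 of 8 genes and 0% of all genes passed, 0 of 8 and 8.56% of all genes had an unadjusted p-value under 0.05, and the DESeq2 Wald test called 0. With day entered as a number, the hyperoxia effect on LIF grew by 1.42 per day (adjusted p = 0.00297) and that on LIFR changed by -0.53 per day (adjusted p = 0.00643).

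Comparisons between days within one oxygen level, which use the same libraries again, describe hyperoxia and normoxia separately. In hyperoxia, LIF was 5.85 (SE 0.76, adjusted p = 5.41e-05) higher in HT7 than in HT3 on the log2 scale, and LIFR was lower, with a log2FC of -2.19 (SE 0.27, adjusted p = 3.19e-05). No other gene of the 8 passed there, against 29.4% of all genes (14.3% higher and 15.1% lower), and IL6 had a log2FC of 3.47 (adjusted p = 0.0188). HT5 already differed from HT3 for LIF (3.64, adjusted p = 0.00452) and LIFR (-2.09, adjusted p = 0.000959), against 8.8% of all genes (4.18% higher and 4.62% lower). Without HT5 replicate 2 neither passed (adjusted p = 0.1 and 0.0291), and LIF also did not pass without HT3 replicate 1 (0.0194) or HT3 replicate 2 (0.023). Between HT5 and HT7, and between any days in normoxia, no gene of the 8 passed with edgeR. The background was 0.00761% of all genes for HT7 against HT5 and 0% for each normoxia comparison. At an unadjusted p-value under 0.05 only LIF was called for HT7 against HT5 (18.6% of all genes), none of the 8 for NT5 against NT3 (5.64%), and only IL6R for NT7 against NT3 (6.27%) and for NT7 against NT5 (4.45%). The DESeq2 Wald test called 0 of the 8 for NT5 against NT3 and for NT7 against NT3. In normoxia the LIF log2FC from NT3 to NT7 was 0.08 and the LIFR log2FC was -0.09.

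The 5 entries whose levels were most like those of LIF over the 17 libraries, out of 10990 compared, were MYBBP1A (Pearson r = 0.993), VWA7 (0.99), RSL1D1 (0.986), TCP1 (0.985) and MAP2K3 (0.984). VWA7 shares its locus, and so its counts, with VARS1. MYBBP1A and RSL1D1 encode nucleolar proteins, TCP1 a chaperonin subunit and MAP2K3 a kinase of the p38 pathway. All r values are descriptions over libraries in which the 5 of HT5 and HT7 lie far from the rest. Within the 8 hyperoxia libraries r was 0.987 to 0.993, and within the 9 normoxia libraries 0.209 to 0.628. On day 7 their log2FC ran from 0.92 for TCP1 to 2.10 for VWA7, below that of LIF.

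The rest of the pathway was described with 3 gene lists of 78 genes in all, of which 55 were tested. None passed on day 3 with edgeR, 14 of them had an unadjusted p-value under 0.05 (15.3% of all genes did), and the DESeq2 Wald test called 1, CNTF. On day 5, 11 were upregulated and 3 downregulated, where 8.56% of all genes were higher and 7.62% lower. On day 7, 21 were upregulated and 7 downregulated, where 16.7% of all genes were higher and 16.9% lower. On day 5 only 1 of them passed without HT5 replicate 2, 5 without NT5 replicate 2 and 6 without NT5 replicate 3. On day 7, 18 passed without HT7 replicate 3, NT7 replicate 2 or NT7 replicate 3.

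**Figure D4:**
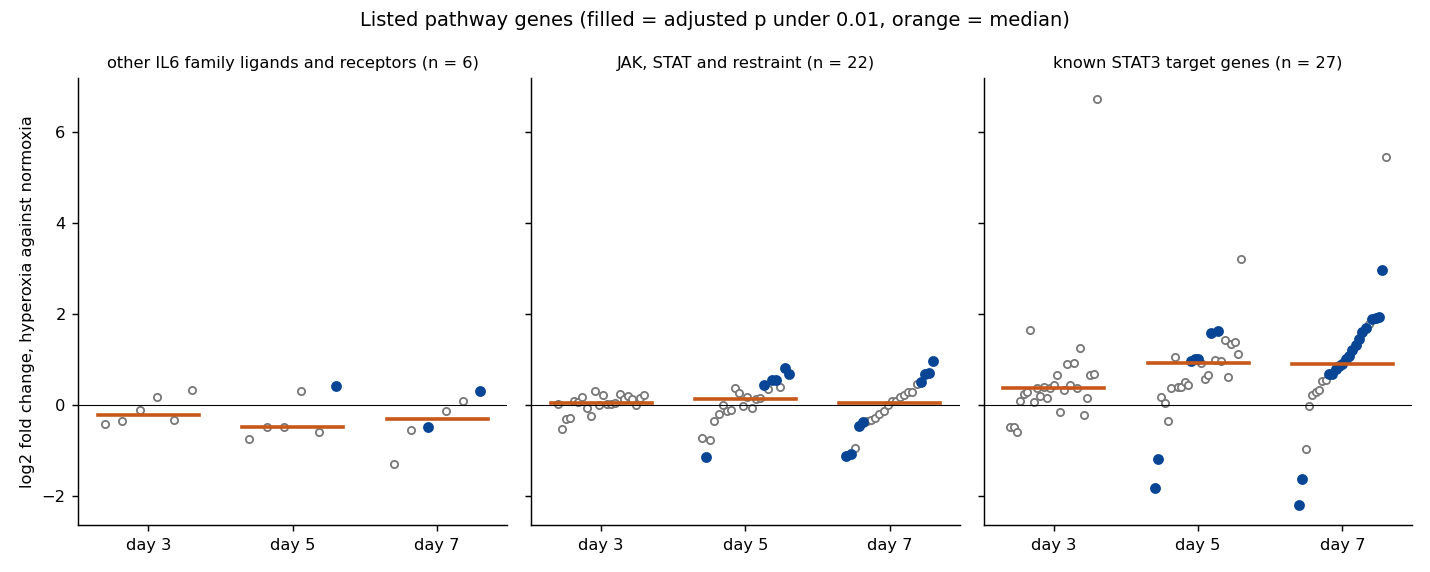
Hyperoxia against normoxia for every tested gene of the 3 lists on days 3, 5 and 7, with the log2FC on the y axis (1 point per gene, filled where the adjusted p-value was under 0.01, orange line for the list's median). On day 7, 16 of the 27 tested STAT3 target genes are filled above 0 and 2 below, and the top open point on each day is FGB, which had 0 counts in all 9 normoxia libraries.

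Among 6 tested genes of other IL6 family ligands and receptors, out of 11 listed, 1 rose on day 5 and, on day 7, 1 rose and 1 fell, on days when 16.2% and 33.6% of all genes were called. CNTF, a ligand known mainly from neurons, stood at 195 to 216 CPM in NT7 and 249 to 258 CPM in HT7 (log2FC 0.30, adjusted p = 0.00615), but it shares its locus with a readthrough transcript, ZFP91-CNTF. IL11RA, the receptor for IL11, stood at 61.3 to 67.3 CPM in NT7 and 40.8 to 53.4 CPM in HT7 (log2FC -0.49, adjusted p = 0.00714). IL11RA was lost as a call with the replicate number as a block (adjusted p = 0.0112), and both calls held in only 1 of the 6 fits that left out 1 day 7 library (adjusted p of up to 0.0449 for IL11RA and 0.0344 for CNTF). The median log2FC of the list on day 7 was -0.31.

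Of 22 tested Janus kinases, other STAT factors and genes that restrain or relay the signal, 4 rose and 4 fell on day 7, with a median log2FC of 0.03. The 8 calls among 22 are near the background of 33.6% of all genes called on that day. On day 5, 5 rose and 1 fell (median log2FC 0.13), against 8.56% of all genes called higher and 7.62% lower, and none of them passed with day 5 fitted alone. JAK2, a kinase that IL6ST complexes use, stood at 43.9 to 58.1 CPM in NT7 and 70.8 to 94.4 CPM in HT7 (log2FC 0.70, SE 0.17, adjusted p = 0.0032). PTPN2, a phosphatase that removes phosphate from JAK and STAT proteins, rose with a log2FC of 0.95 (SE 0.14, adjusted p = 9.15e-05). SOCS7 also rose (0.67, adjusted p = 0.00568). JAK2 was lost as a call without HT7 replicate 1, HT7 replicate 3 or NT7 replicate 2 (adjusted p of up to 0.0201), and SOCS7 without HT7 replicate 3, NT7 replicate 1 or NT7 replicate 3 (up to 0.035).

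SOCS2, a feedback inhibitor best known for restraining growth hormone signalling, fell from 44.2 to 55.2 CPM in NT7 to 19.2 to 30.5 CPM in HT7 (log2FC -1.08, SE 0.17, adjusted p = 0.000183). GAB1, an adaptor that links IL6ST to MAP kinase signalling, stood at 108 to 133 CPM in NT7 and 42.7 to 72.6 CPM in HT7 (log2FC -1.13, SE 0.18, adjusted p = 0.000131). The other 3 calls on day 7, named after their values were seen, were PTPN11 (0.49), STAT5B (-0.39) and PIAS3 (-0.47). Of genes also named with their values known, neither JAK1 (log2FC 0.08, adjusted p = 0.474) nor TYK2 (0.08, adjusted p = 0.579), the other kinases of the complex, passed on day 7, and TYK2 shares its locus with RAVER1 and ICAM3.

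Of 27 tested genes known as STAT3 targets, out of 40 listed, 5 rose and 2 fell on day 5, and 16 rose and 2 fell on day 7. The shares of all genes were 8.56% higher and 7.62% lower on day 5, and 16.7% higher and 16.9% lower on day 7. Many of them respond to other transcription factors too. Their median log2FC was 0.36, 0.92 and 0.89 on days 3, 5 and 7, and 0.34, 0.79 and 0.87 without FGB. For FGB, a fibrinogen chain, 40 of its counts were in HT3 replicate 2, 13 in HT7 replicate 3 and at most 4 in any other library, so no fold is given.

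TIMP1, an inhibitor of matrix metalloproteinases, stood at 142, 68.7 and 98.1 CPM in NT7 and at 1434, 264 and 705 CPM in HT7, again with replicate 1 the highest (log2FC 2.96, SE 0.47, adjusted p = 0.000166). CHI3L1, a chitinase-like protein of injured epithelium and macrophages, stood at 243, 371 and 196 CPM in NT7 and at 1286, 1131 and 685 CPM in HT7 (log2FC 1.94, SE 0.52, adjusted p = 0.00658). ZFP36, which destabilises cytokine mRNAs, stood at 44.9, 42.0 and 37.9 CPM in NT7 and at 225, 73.7 and 169 CPM in HT7 (log2FC 1.91, SE 0.39, adjusted p = 0.00113). No NT7 library of these 3 genes reached the lowest HT7 library. The call on CHI3L1 held without HT7 replicate 3 and was lost without any of the other 5 libraries (adjusted p of up to 0.0315), while TIMP1 and ZFP36 passed in all 6 such fits.

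FOS, an immediate early gene, had a log2FC of 1.89 (SE 0.54, adjusted p = 0.00934) on day 7 that was lost with the replicate block (adjusted p = 0.0175), without HT7 replicate 1 (log2FC 1.09, adjusted p = 0.0855) and without any of the 3 NT7 libraries (adjusted p of up to 0.0436). VEGFA, the growth factor that maintains lung capillaries, moved the other way. It stood at 1130, 1395 and 1379 CPM in NT7 and at 277, 334 and 238 CPM in HT7 (log2FC -2.20, SE 0.22, adjusted p = 4.95e-06). The other target that fell was TGM2, a transglutaminase named after its values were seen (log2FC -1.63, adjusted p = 3.5e-05).

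The homogenates hold many cell types, and marker lists moved with these genes. The 5 tested endothelial markers summed to 2009 to 2344 CPM in NT7 and 818 to 1193 CPM in HT7, and to 1812 to 2248 CPM in NT5 and 1121 to 1167 CPM in HT5, while HT3 (2021 to 2451 CPM) overlapped NT3 (2231 to 2548 CPM). CDH5, KDR and TEK fell on both days, on which 7.62% (day 5) and 16.9% (day 7) of all genes were called lower. VWF rose on day 5 (log2FC 1.14, adjusted p = 0.00747) and did not pass on day 7 (0.29), and PECAM1 passed on neither day (-0.15 and -0.05). The 5 alveolar type 1 markers summed to 6464 to 7245 CPM in NT7 and 1937 to 2539 CPM in HT7, and AGER, CAV1 and RTKN2 fell. HOPX (log2FC 0.35) and PDPN (0.15) did not pass, and AGER, the largest part of the sum, shares its locus with PBX2. On day 5, 2 of these 5 fell. Besides the lymphocyte list, given below, the summed levels of 4 more lists were lower without overlap on some days, each carried by a few of its genes. The sum of the 3 tested mesothelial markers was 16.2 to 48.1 CPM in HT5 against 78.0 to 157 CPM in NT5 and 10.6 to 36.9 CPM in HT7 against 76.5 to 168 CPM in NT7. Most of it was UPK3B, with a mean of 127 CPM in NT7 and 14.9 CPM of a mean sum of 19.7 CPM in HT7. UPK3B fell on day 7 (log2FC -3.10), while WT1 (0.56) and LRRN4 (0.50) did not pass and the list's median log2FC was 0.50. The sum of the 2 tested erythroid markers was 50.6 to 65.9 CPM in HT5 against 88.2 to 156 CPM in NT5 and 39.2 to 55.2 CPM in HT7 against 103 to 168 CPM in NT7. Nearly all of it was ALAS2, which fell on day 7 (log2FC -1.61), and AHSP did not pass on day 5 (0.09) or day 7 (-0.52). The sums of 5 fibroblast and 4 smooth muscle markers were lower without overlap on days 3 and 5 and overlapped on day 7. The fibroblast sums, mostly COL1A1 and COL1A2, were 2663 to 3271 CPM in HT5 and 4227 to 4876 CPM in NT5. COL1A2 alone of the 5 passed on day 5 (log2FC -0.79), where DCN (0.24) and LUM (0.70) had positive values, and on day 7 LUM rose (1.25) and TCF21 fell (-1.56). The smooth muscle sums were 421 to 475 CPM in HT5 and 709 to 902 CPM in NT5, where MYH11 and TAGLN fell and DES did not pass (log2FC 0.80). LIFR was lower on days 5 and 7, and the part of any of these cell types in that result was not tested.

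Macrophage markers summed to 1213 to 1429 CPM in NT7 and 2006 to 2573 CPM in HT7, but the largest part of this sum was CD68, whose locus is carried by 7 entries, EIF4A1 and MPDU1 among them, so its counts cannot be assigned to CD68 alone. Without CD68 the other 9 summed to 540 to 661 CPM in NT7 and 492 to 827 CPM in HT7, which overlap. Of 10 tested, MERTK and the locus of CD68 rose, MARCO fell and 7 did not pass, against 33.6% of all genes called on day 7, and the list's median log2FC was 0.098. On day 5 the macrophage sums were 1770 to 1954 CPM in HT5 and 907 to 1709 CPM in NT5, and without CD68 they overlapped, at 449 to 805 CPM and 312 to 878 CPM. On day 3 they were 1091 to 1502 CPM in HT3 and 990 to 1083 CPM in NT3. Without CD68 the day 3 sums were 444 to 647 CPM in HT3 and 358 to 414 CPM in NT3, again without overlap. None of the 10 macrophage markers passed on day 3. Neutrophil markers summed to 1063 to 1152 CPM in NT7 and to 3458, 1047 and 1539 CPM in HT7 replicates 1, 2 and 3, and none of 6 tested passed on any day. The HT7 library with the most neutrophil marker counts was thus replicate 1, the highest for LIF, IL6 and STAT3. The order of the 3 HT7 libraries was the same for LIF, IL6 and the neutrophil and macrophage sums. LIF ran opposite to the neutrophil sum in HT3 (1401, 1675 and 1138 CPM in replicates 1, 2 and 3) and in HT5 (951 and 702 CPM). IL6 ran with that sum in HT5 but was highest in HT3 replicate 3, where the sum was lowest. MPO had a log2FC of -2.19 on day 7, and the other 5 neutrophil markers had positive values. On day 3 the neutrophil sums were 1138 to 1675 CPM in HT3 and 296 to 795 CPM in NT3, and on day 5 they were 702 to 951 CPM in HT5 and 157 to 691 CPM in NT5, without overlap on either day. The part of these cells in the levels of the cytokines was not tested, and without HT7 replicate 1 LIF still passed on day 7 and IL6 did not, as given above.

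Lymphocyte markers were near 0, at 9.23 to 16.5 CPM summed over 7 genes in NT7 and 1.79 to 3.75 CPM in HT7, and 4 of the 7 fell on day 7, against 16.9% of all genes called lower. On day 3 their sums were 3.21 to 3.96 CPM in HT3 and 4.26 to 8.70 CPM in NT3, also without overlap, and none passed. The day 5 sums overlapped. Sums of 5 monocyte markers overlapped on days 3, 5 and 7, and none of the 5 passed on any of these days. Muscle markers summed to 8.48 CPM or less in HT7 and 4.99 CPM or less in NT7, so the day 7 values of the 8 genes were measured in libraries without the muscle signal of HT3 replicate 2 and HT5 replicate 1.

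**Figure D5:**
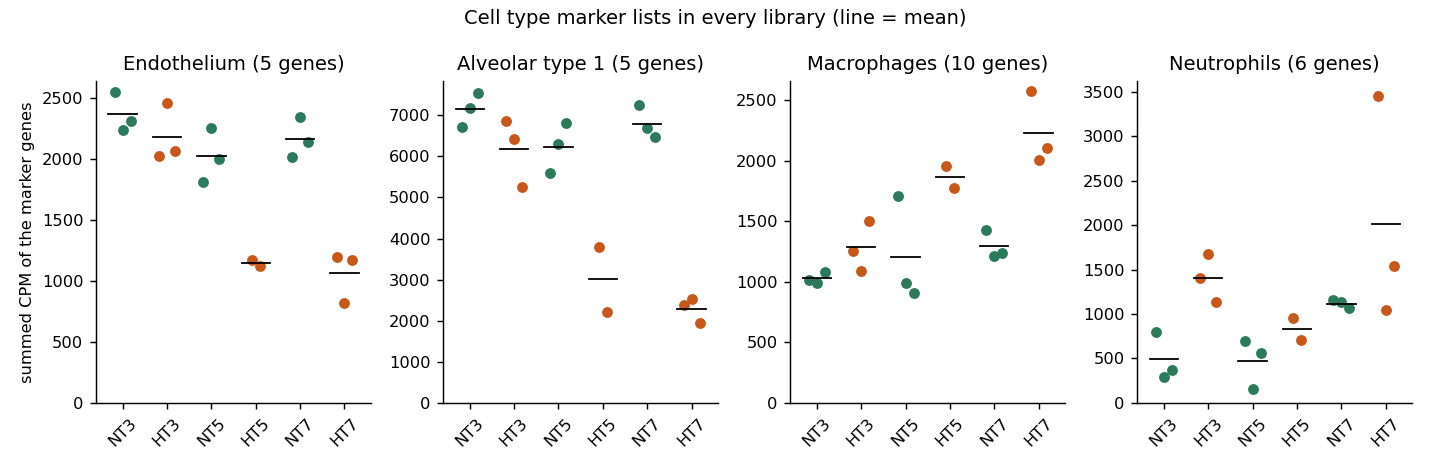
Summed CPM of 4 marker lists in every library, by group (green normoxia, orange hyperoxia; the line is the group mean). Endothelial and alveolar type 1 sums are lower in HT5 and HT7 than in any normoxia library, macrophage sums, with the shared locus of CD68 as their largest part, lie higher in HT7 than in NT7, and the highest neutrophil sum, 3458 CPM, is that of HT7 replicate 1.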

How the data were processed

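Gene expression was measured by RNA-seq in 17 right lung homogenates, grouped by the oxygen level and day in their labels. Stranded poly(A) libraries were sequenced as paired ends. The table the authors deposited holds raw counts of each locus, not normalized. The submitters' processing notes name FastQC, STAR 2.7.10a and the build OryCun2.0, and the counting program is not given in the sources used here. Genes of a locus with several genes carry the same counts, and 44 of 13827 entries lack a name.

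The counts were tested in R 4.3.3 with edgeR 4.0.16. The filterByExpr step kept 13142 entries and left out 685. Libraries were scaled by TMM factors (0.958 to 1.05). The quasi-likelihood model had 6 group means and used all 17 libraries, so that HT5 borrowed its spread from the other groups. Benjamini-Hochberg adjustment ran over all entries tested. Log2FC used a prior count of 0.125 and log2 CPM a prior count of 2, and standard errors were derived from the F statistic.

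The members and gene lists were chosen with earlier results of these data known. All members were named, with the 5 genes of each list that had the largest log2FC among those that passed on day 7, and the 5 entries most correlated with LIF. Lists came from general knowledge. Alternatives were the DESeq2 1.42.0 Wald test, its size factors, no count filter, 1 entry per locus, a prior count of 2, other thresholds, libraries of 1 day alone, a replicate block and leaving out each library. Same-numbered libraries of a day were compared by how their deviations from their group's mean correlate. The correlation was 0.166, 0.131 and 0.199 on day 3, 0.264 and 0.141 on day 5, and 0.174, 0.109 and 0.0695 on day 7. Only day 3 had 3 pairs above the cut of 0.1 set here, since day 5 has 2 pairs, both above it, and 1 pair of day 7 was below. Such a cut cannot establish pairing, and the sources do not say what the numbers stand for. The main test used no pairing. The replicate block joined the same number across all days, so pairing within each day was not modelled on its own. The edgeR steps were tested on simulated data. No sequence is shown, since no sequence of these genes was used here.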

Additional observations from a re-analysis of the deposited data

Results flagged for a closer look

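The hyperoxia effect differed between days 7 and 3 by edgeR's test of the difference (Benjamini-Hochberg adjusted p under 0.01) for LIF and LIFR among the 8 genes and for GAB1 and VEGFA among the pathway genes, and also for the endothelial and alveolar type 1 markers CDH5, KDR, TEK, AGER and CAV1. On the log2 scale the difference was 5.77 for LIF (adjusted p = 0.00332) and -2.10 for LIFR (adjusted p = 0.00217). It was -1.14 for GAB1 (adjusted p = 0.00657), whose effect was 0.01 on day 3 and -1.13 on day 7. It was -1.70 for VEGFA (adjusted p = 0.00253), whose effect was -0.50 on day 3 and -2.20 on day 7. GAB1 and VEGFA were the only ones of the 55 tested genes of the 3 lists that passed this test, which 7.27% of all genes passed.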

How the results depend on the processing

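With DESeq2's size factors, no count filter, 1 entry per locus or a prior count of 2, every call on the 8 genes on days 3, 5 and 7 was as given in the report. At an adjusted p under 0.05, 1 of the 8 genes was called on day 3, 1 for the effect of day 5 minus day 3, 4 for HT7 against HT3, and 22 genes of the lists on day 5. The DESeq2 Wald test called 1 of the 8 and 1 of the lists on day 3, and 1 of the 8 for day 5 minus day 3. The shares of all genes called at an adjusted p under 0.05 or by the Wald test were not computed. As DEGs, 1 of the 8 and 0 of the lists were called on day 5, and 3 and 2 on day 7. Fitted on its own libraries, day 5 gave 0 calls among the 8 and 0 in the lists, a fit with fewer libraries, in which LIF had a log2FC of 4.55 (adjusted p = 0.0143). Leaving out 1 library at a time, the calls among the 8 were 0 on day 3, 0 to 4 on day 5, 3 to 5 on day 7, 1 to 2 for day 7 minus day 3, 0 to 2 for HT5 against HT3 and 2 to 3 for HT7 against HT3, and those in the lists were 1 to 14 on day 5 and 18 to 28 on day 7. Signs turned for values that had not passed: day 3 OSM (-0.24 to 1.47) and LIFR (-0.27 to 0.31), day 7 OSMR (-0.20 to 0.11) and IL6R (-0.083 to 0.19), and day 7 minus day 3 IL6 (-0.32 to 3.41) and IL6ST (-0.056 to 0.23). The cause of these shifts was not tested. With the replicate block, 0, 4 and 5 of the 8 genes passed on days 3, 5 and 7, with the same calls, and 0, 15 and 24 genes of the lists passed, and of the genes named on day 7 IL11RA and FOS were lost. IL11RA, CNTF, JAK2, SOCS7 and FOS were also lost when day 7 was fitted alone. Counts in normoxia were low for IL6 (0 to 21), OSM (1 to 43) and LIF (26 to 53), which limits the precision of their fold changes.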
